A study of Mus musculus with 400 samples.

Results

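The transient receptor potential (TRP) channel genes described here are Trpv1, Trpv2, Trpa1, Trpm2, Trpm3, Trpm4, Trpm8 and Trpc6, chosen by name as channels linked to heat, cold, irritants or the currents that follow them; all 8 are among the 24754 gene rows used. They were followed in single cells of cervical (C1-C8) dorsal root ganglia (DRG), taken from 6 mice aged 6 to 12 weeks and not treated (naive), strain Nav1.8-Cre.Ai14, in which Cre made under the Nav1.8 gene (Scn10a) removes the stop cassette of the R26CAG-floxStop-tdTomato reporter. Cells with red fluorescence were sorted one by one, so the data hold the Nav1.8-Cre lineage of sensory neurons and not the whole ganglion, and a cell stays marked even if it has since lowered Scn10a. All mice carried the same alleles and were of 1 condition, so the comparisons set groups of cells against the other cells of the same mice. Run 1 held mice Blue and Red, run 2 mouse Control, run 3 mice Control1 and Control2, and run 4 mouse Control6; the mouse was taken as the replicate. Of 394 cells with values, 371 had at least 500 detected genes and were kept. Blue and Red gave 254 of them, and the mice of the later runs gave 19 to 50 each.

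TRP channels are cation channels of the cell membrane that open in response to temperature, chemicals or second messengers and depolarise sensory endings. In DRG neurons TRPV1 is opened by capsaicin, acid and noxious heat, TRPA1 by mustard oil and other reactive irritants, TRPM3 by noxious heat and pregnenolone sulfate, and TRPM8 by menthol and cooling. TRPM2 responds to ADP-ribose, oxidative stress and warmth, TRPM4 carries sodium when cytosolic calcium is high, TRPC6 opens downstream of phospholipase C, and TRPV2 opens at extreme heat in heterologous cells and has been linked to stretch.

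The genes lie on several chromosomes. On GRCm38 (mm10), GENCODE vM21 places Trpv1 at 73234292 to 73261242 and Trpv2 at 62574486 to 62600515 of chromosome 11, both on the plus strand. Trpa1 is at 14872648 to 14918862 (minus strand) and Trpm8 at 88277661 to 88389293 (plus strand) of chromosome 1. Trpm2 spans 77907722 to 77970563 of chromosome 10 (minus strand), Trpm3 spans 22139046 to 22995410 of chromosome 19 (plus strand), Trpm4 spans 45302632 to 45333780 of chromosome 7 (minus strand) and Trpc6 spans 8544142 to 8680741 of chromosome 9 (plus strand). RefSeq promoter windows (GRCm38.p6, from 250 bases before to 50 bases after the annotated start) were found for 6 of the 8 genes; Trpa1 and Trpm4 were the others. The windows of Trpv1, Trpc6, Trpm2 and Trpv2 are printed here, 5′ to 3′ on the strand of the gene. Each of these genes was called in some gates below, but every call of Trpv2 was lost under some alternative. They are chr11:73233899-73234198 (plus strand) for Trpv1, chr9:8543892-8544191 (plus strand) for Trpc6, chr10:77969823-77970122 (minus strand) for Trpm2 and chr11:62574236-62574535 (plus strand) for the first of 3 windows of Trpv2. Capitals mark TGTGGT, the core letters bound by RUNX factors; RUNX1 is known in mice to shape the nonpeptidergic class of nociceptors.
Trpv1: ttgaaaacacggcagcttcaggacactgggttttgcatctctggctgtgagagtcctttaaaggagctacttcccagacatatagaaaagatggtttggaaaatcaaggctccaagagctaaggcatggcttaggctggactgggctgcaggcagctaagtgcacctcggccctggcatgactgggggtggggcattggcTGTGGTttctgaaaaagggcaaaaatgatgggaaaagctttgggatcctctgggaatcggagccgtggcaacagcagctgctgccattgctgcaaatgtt
Trpc6: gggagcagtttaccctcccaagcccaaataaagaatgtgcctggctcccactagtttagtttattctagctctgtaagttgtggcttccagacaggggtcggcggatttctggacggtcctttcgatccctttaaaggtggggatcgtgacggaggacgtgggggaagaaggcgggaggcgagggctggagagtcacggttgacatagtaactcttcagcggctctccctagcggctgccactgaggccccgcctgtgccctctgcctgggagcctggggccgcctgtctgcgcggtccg
Trpm2: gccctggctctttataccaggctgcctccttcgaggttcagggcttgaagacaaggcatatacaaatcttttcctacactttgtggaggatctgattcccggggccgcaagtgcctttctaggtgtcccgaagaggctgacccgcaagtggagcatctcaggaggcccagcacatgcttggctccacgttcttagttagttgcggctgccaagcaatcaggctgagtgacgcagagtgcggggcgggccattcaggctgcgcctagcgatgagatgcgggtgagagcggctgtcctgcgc
Trpv2: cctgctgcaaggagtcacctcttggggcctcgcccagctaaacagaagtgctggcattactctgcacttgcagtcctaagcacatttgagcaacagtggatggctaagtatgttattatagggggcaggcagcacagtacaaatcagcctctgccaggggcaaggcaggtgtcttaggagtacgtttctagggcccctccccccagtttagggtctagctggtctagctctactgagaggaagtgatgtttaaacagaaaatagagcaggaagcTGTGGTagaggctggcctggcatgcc
TGTGGT was searched on both strands (ACCACA on the other). It begins 50 bases before the start of Trpv1 and 24 bases after that of Trpv2, on the strand of the gene. The windows of Trpc6 and Trpm2 hold no copy of these letters. Of 32851 windows in the table, 16.8% hold it, so its presence is a description only.

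Cells were grouped by thresholds on other genes, in CPM (counts scaled to the same total in each cell) without ribosomal Rn45s. The Mrgprd gate (at least 200 CPM; Mrgprd is a receptor of nonpeptidergic nociceptors) held 30.5% of kept cells, and the Mrgpra3 gate (50 CPM; a chloroquine itch receptor) held 47 cells. The Sst or Nppb gate (100 CPM; itch neuropeptides) held 46, the Th gate (100 CPM; tyrosine hydroxylase, a marker of low-threshold C fibres) held 39, and the Calca and Tac1 gate (2000 and 1000 CPM; the peptides CGRP and substance P) held 86. The Nefh gate (500 CPM; the heavy neurofilament of large myelinated neurons) held 26. Of the kept cells, 329 passed exactly 1 gate, 14 passed 2 and 28 passed none. The cells nearest the thresholds, at or above and below, were at 253 and 138 CPM of Mrgprd, 60.7 and 43.04 CPM of Mrgpra3, 200.1 and 79.4 CPM of Sst, 106.96 and 17.7 CPM of Nppb, 109 and 99.1 CPM of Th, 2455 and 1909 CPM of Calca, 1233 and 859 CPM of Tac1, and 506 and 476 CPM of Nefh.

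The depth of kept cells had a median of 30366 recovered counts and a range of 918 to 324984. Whole reads were recovered in 243 of 394 columns; in the other 151 the counts, and with them the thinned shares and the edgeR and DESeq2 values, rest on an estimated step. It differed by gate, with a median of 46149 in the Mrgprd gate, 38554 in the Mrgpra3 gate, 16933 in the Sst or Nppb gate, 32443 in the Th gate, 19859 in the Calca and Tac1 gate and 67453 in the Nefh gate. Shares of cells with a count are therefore given also after each cell was thinned to 5000 counts, which left 361 cells. Neuronal markers (6 of 6 detected) summed to between 7070 and 8631 CPM per mouse. Satellite glial markers (7 of 7 detected) summed on average to 537 CPM in the Mrgprd gate, 1205 CPM in the Calca and Tac1 gate and 3671 CPM in the Nefh gate, against 950 CPM over all kept cells; the lowest and highest mouse were at 307 and 2260 CPM. In the Nefh gate, 17 of 26 cells came from mouse Control and 22 carried at least 1000 CPM of satellite glial markers. With thinned cells no member was called in the Nefh gate, and without cells carrying glial RNA its comparison could not be fitted; the part of glial RNA in its results was not tested.

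**Figure D1:**
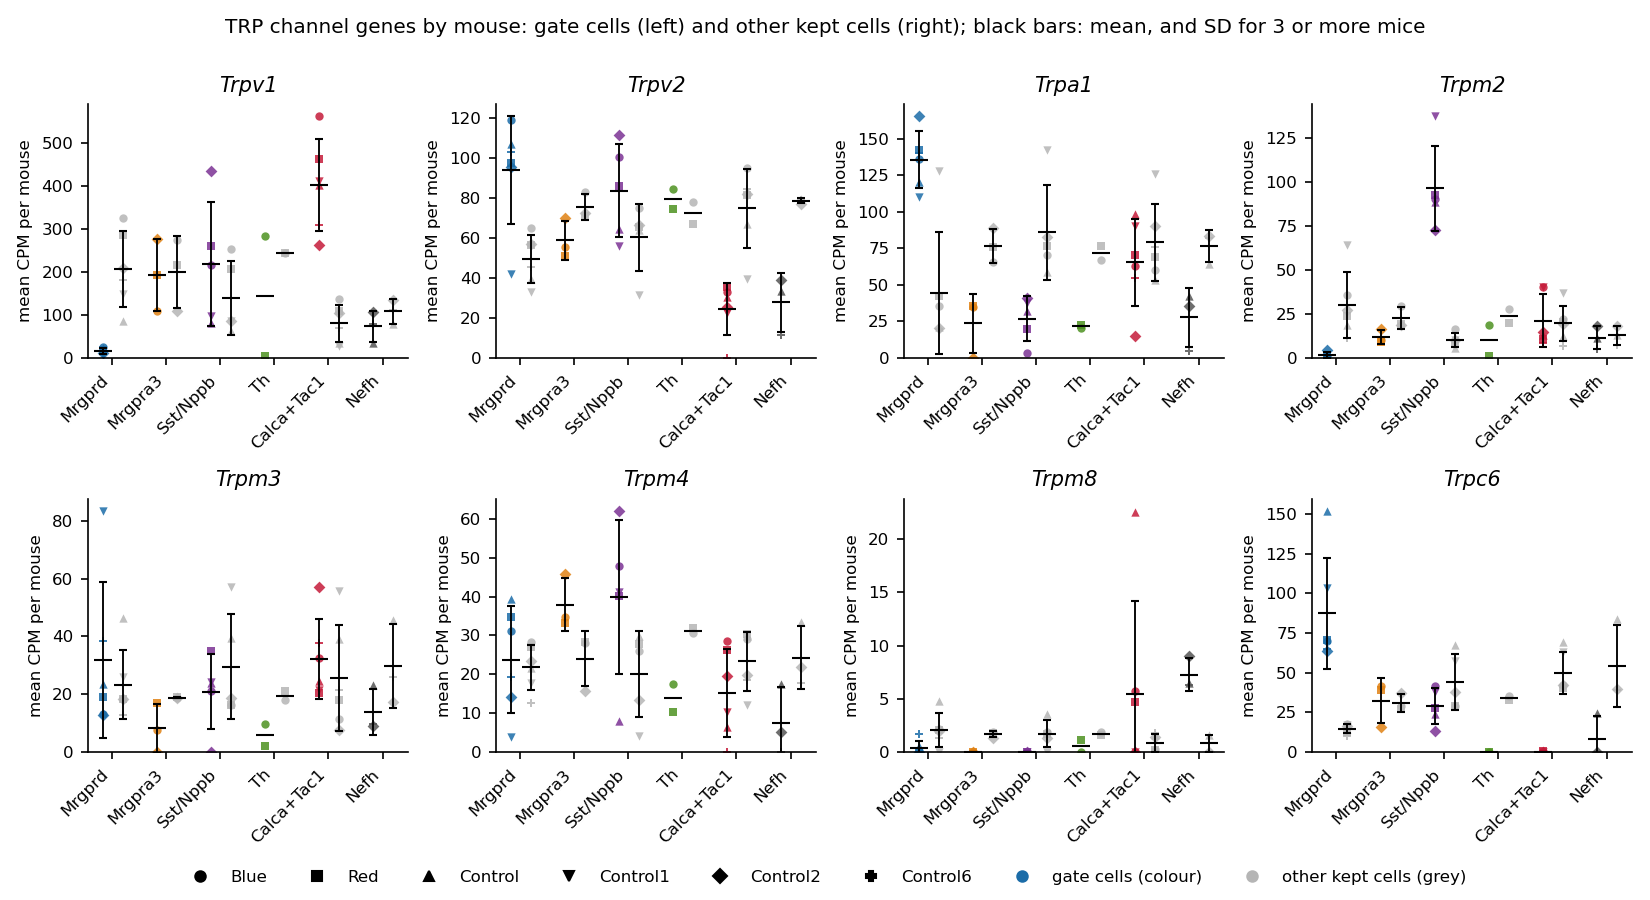
Mean CPM of each gene per mouse (symbols) in the cells of a gate (coloured, left) and in the other kept cells of the same mice (grey, right), with the mean over mice as a black bar and the SD where 3 or more mice had at least 3 gate cells. Trpv1 is high in the Calca and Tac1 gate and low in the Mrgprd gate, Trpa1 and Trpc6 are high in the Mrgprd gate, and Trpm2 is high in the Sst or Nppb gate.

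The cells of each gate were compared with the other kept cells of the same mice, as log2(mean CPM + 5) per mouse and side with mouse as a block (limma; a call needs an adjusted p, by Benjamini-Hochberg over all genes tested, under 0.05). The members tested in each gate were 7, since Trpm8 lay below the filter of 10 CPM; the comparisons share cells and are not independent of each other. In the Mrgprd gate 5 members were called, 3 higher (Trpa1, Trpc6, Trpv2) and 2 lower (Trpv1, Trpm2). Of all 9058 genes tested there, 9.70% were called higher and 12.3% lower. In the Mrgpra3 gate no member was called, against 1.37% higher and 2.19% lower of 8957 genes. Only 3 mice entered that fit and leaving out any of them changed the count: Trpa1 was called lower without Blue (-2.61) and without Red (-2.53). In Blue and Red alone, Trpv1 (-0.73), Trpv2 (-0.49), Trpa1 (-0.91) and Trpm2 (-0.996) were called lower, while 2260 genes were called, against 319 with all 3 mice. These fits of 2 mice gave each gene the spread shared by all genes (infinite prior degrees of freedom in limma), so their calls take no account of a gene's own disagreement between mice. In the Sst or Nppb gate Trpm2 was higher and Trpa1 lower, against 3.24% higher and 8.68% lower of 9030 genes. In the Th gate 6 members were called lower, all but Trpv2, where 14.3% of 9078 genes were called higher and 14.4% lower. In the Calca and Tac1 gate Trpv1 was higher and Trpv2 and Trpc6 were lower, against 5.08% higher and 6.40% lower of 9209 genes. In the Nefh gate Trpv2, Trpa1 and Trpc6 were lower, against 4.20% higher and 4.58% lower of 9277 genes. Of these 19 calls, 7 kept their direction and stayed past the threshold under every alternative run: Trpv1, Trpa1, Trpm2 and Trpc6 in the Mrgprd gate, Trpm2 in the Sst or Nppb gate, and Trpv1 and Trpc6 in the Calca and Tac1 gate.

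**Figure D2:**
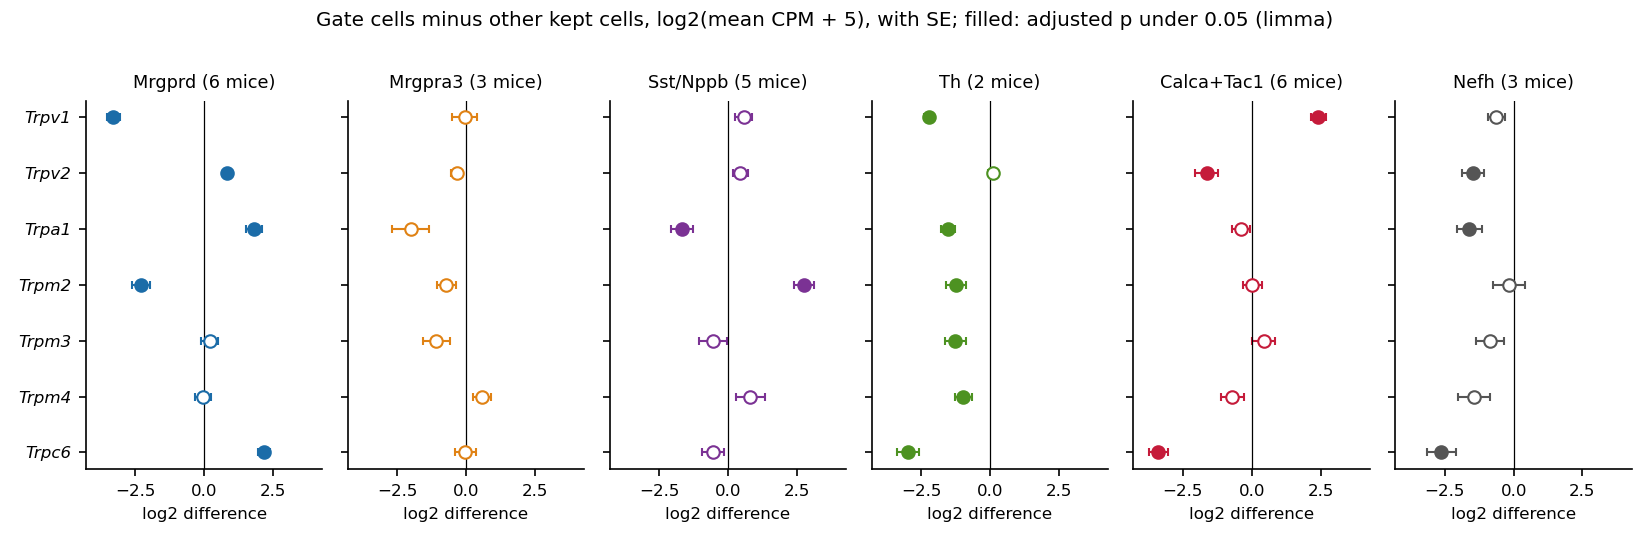
Log2 difference of each tested gene, gate cells minus other kept cells, on the log2(mean CPM + 5) scale with its SE; filled points passed an adjusted p under 0.05 in limma. Trpv1 lies at 2.42 in the Calca and Tac1 gate and at -3.30 in the Mrgprd gate, and Trpc6 at 2.17 in the Mrgprd gate and -3.39 in the Calca and Tac1 gate.

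Trpv1, the capsaicin and heat receptor, was found in nearly all cells of the Calca and Tac1 gate and at low level in the Mrgprd gate. In the Calca and Tac1 gate its mean was 564 and 465 CPM in Blue and Red and 403, 412, 264 and 309.9 CPM in Control, Control1, Control2 and Control6. In the other kept cells of these mice it was 137, 107.8, 33.5, 27.9, 103.7 and 68.1 CPM, in the same order. All 6 mice were higher in the gate and the groups did not overlap. The means were 403 ± 107.6 CPM in the gate and 79.7 ± 43.9 CPM in the other cells (SD, n = 6 each), a log2 difference of 2.42 ± 0.27 (SE; limma adjusted p = 3.82e-05). A count was present in 85 of 86 gate cells (98.8%, 95% Clopper-Pearson interval 93.7 to 99.97), and in 89.5% after thinning; intervals of this kind cover counting error only.

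In the Mrgprd gate Trpv1 averaged 24.3 and 18.3 CPM in Blue and Red and 21.7, 7.06, 11.3 and 11.5 CPM in Control, Control1, Control2 and Control6. The other kept cells had 326, 287, 86.3, 148, 209 and 182 CPM, mouse by mouse. Every mouse was lower in the gate and the groups did not overlap; the difference was -3.30 ± 0.23 (log2, SE; limma adjusted p = 1.03e-07). Detection there was nevertheless common at full depth, in 53 cells (46.9% of the gate, interval 37.5 to 56.5), none of them above 98.1 CPM, and it was 9.01% after thinning. Mrgprd gate cells with a Trpv1 count had deeper libraries than those without (medians of 50056 and 39799 counts) and averaged 405 CPM of Calca, against 248 CPM in those without; in Blue these means were 345 and 309.6 CPM, and in Red 445 and 154 CPM.

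Intermediate levels were found in the itch gates. Trpv1 averaged 217 and 261 CPM in Blue and Red and 80.1, 97.4 and 437 CPM in Control, Control1 and Control2 in the Sst or Nppb gate. Against this, the other kept cells had 254, 207, 61.6, 86.1 and 85.8 CPM in that order of mice, and the groups overlapped (log2 difference 0.58 ± 0.31, SE; limma adjusted p = 0.267). It was called higher there with means of log2 values (2.10, limma adjusted p = 0.000763), with edgeR (0.88, adjusted p = 4.42e-06) and with DESeq2 (1.01, adjusted p = 0.0191). It was detected in 41 of 46 of these cells (89.1%; 57.8% after thinning). In the Mrgpra3 gate its mean was 108.6 CPM in Blue, 194 in Red and 277 in Control2, against 274, 217 and 109.7 CPM, so that the mice differed in direction; a count was present in 37 of 47 cells (78.7%; 23 of 46 after thinning). In the Nefh gate it was 33.6 CPM in Control, 106.04 in Control2 and 78.9 in Control6, against 78.2, 135 and 110.6 CPM. The groups overlapped there (-0.64, limma adjusted p = 0.257), and Trpv1 was called lower with edgeR (-1.39, adjusted p = 0.0221). In Control2 the Nefh gate cells with a Trpv1 count, at 303 and 15.3 CPM, also passed a second gate.

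The Th gate held Trpv1 in 4 of 39 cells (10.3%, interval 2.87 to 24.2; 5.13% after thinning), and 3 of these 4 passed a second gate. Among the 34 cells in no other gate it was found in 1, at 3500 CPM. That cell was from Blue; with it the mean of Blue was 283 CPM, against 244 CPM in the other kept cells of Blue, while the mean of Red was 4.92 CPM, against 244 CPM. Only Blue and Red had 3 or more Th gate cells, and the limma fit of 2 mice again used the spread shared by all genes, so its adjusted p takes no account of the disagreement between the mice and none is printed for this gate. The call of Trpv1 (-2.22) was lost without the mouse block (limma adjusted p = 0.277) and with DESeq2 (0.477). With mice of 2 or more Th gate cells, an alternative added after the values were seen, 5 mice entered and the difference was -3.28 (limma adjusted p = 0.00676); without the 3500 CPM cell it was -3.21 in 2 mice. In order of mean level the gates ran from Calca and Tac1 through Sst or Nppb, Mrgpra3, Th and Nefh to Mrgprd, and among neighbours in this order only the ranges of Nefh and Mrgprd did not overlap. Without the 3500 CPM cell the mean of Blue in the Th gate was 68.4 CPM and the mean over both mice 36.7 CPM, which puts the Th gate below the Nefh gate (72.8 CPM). The orders of gates given here compare means over different mice (all 6 only in the Mrgprd gate and the Calca and Tac1 gate) and are descriptions.

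Trpa1, the receptor of reactive irritants, was highest in the Mrgprd gate, with 136 and 143 CPM in Blue and Red and 120.1, 109.9, 166 and 140.2 CPM in Control, Control1, Control2 and Control6. In the other kept cells of these mice it was 35.2, 42.2, 21.02, 127.7, 20.49 and 19.4 CPM, in the same order. Only in Control1 was the gate the lower side, and the groups overlapped through that mouse. The means were 136 ± 19.3 and 44.3 ± 41.9 CPM (SD, n = 6 each), a log2 difference of 1.80 ± 0.29 (SE; limma adjusted p = 2.91e-04). A count was present in 95.6% of cells (interval 89.98 to 98.5; 52.3% after thinning). In the Sst or Nppb gate Trpa1 was low, with 3.48 and 19.96 CPM in Blue and Red and 31.9, 37.7 and 40.6 CPM in Control, Control1 and Control2. The other kept cells had 70.3, 76.3, 58.8, 142 and 82.8 CPM, mouse by mouse. All 5 mice were lower in the gate without overlap (-1.68 ± 0.39, SE, limma adjusted p = 0.0121), and the call was lost without Blue (-1.31, limma adjusted p = 0.062). The call was also lost with thinned cells and with no filter on low values. Within run 1 the difference was -2.43, and within runs 2 to 4 it was -1.17 (limma adjusted p = 0.277). It was detected in 9 of 46 of these cells (19.6%; 8.89% after thinning).

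In the Calca and Tac1 gate Trpa1 was present in a minority of cells, 27 of 86 (31.4%, interval 21.8 to 42.3; 10.5% after thinning), but at a median of 140.3 CPM and up to 1003 CPM where present. Its mean was 63.1 and 70.7 CPM in Blue and Red and 98.7, 89.9, 14.6 and 54.6 CPM in Control, Control1, Control2 and Control6. Against this, the other kept cells had 59.9, 69.2, 53.04, 125.9, 90.50 and 75.98 CPM in that order of mice, with overlap and no call. The 27 cells with Trpa1 had a median of 23343 counts, against 17024 in the 59 without. Gfra3, the co-receptor of artemin, averaged 265 CPM in the cells with Trpa1 and 171 CPM in those without (Blue 281 and 170 CPM, Red 231 and 199 CPM), and Tac1 averaged 4979 and 3723 CPM. Gal, which encodes galanin, averaged 186 and 257 CPM. In the Th gate Trpa1 was 20.46 CPM in Blue and 22.5 in Red, against 66.6 and 76.4 CPM. Trpa1 was called lower there (-1.53), also with 5 mice (-1.80, limma adjusted p = 0.0222), but not under every alternative run. In the Mrgpra3 gate it was 34.9 CPM in Blue, 35.5 in Red and listed at 0 in Control2, against 65.4, 75.6 and 88.9 CPM; all 3 mice were lower, without a call (-2.01, limma adjusted p = 0.213). It was called lower in each limma fit that left out 1 mouse. Those fits of 2 mice used the spread shared by all genes and took no account of the gene's own spread. Trpa1 was also called lower there with edgeR (-1.24, adjusted p = 0.000521) and with DESeq2 (-1.52, adjusted p = 0.0231).

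In the Nefh gate Trpa1 was 42.2 CPM in Control, 35.7 in Control2 and 4.80 in Control6, against 64.1, 83.5 and 81.8 CPM, and was called lower (-1.61 ± 0.46, SE; limma adjusted p = 0.0261). That call was lost without Control6 (-0.84, limma adjusted p = 0.176) and without the mouse block (0.103). In order of level, the Mrgprd gate did not overlap the Calca and Tac1 gate that follows it, and the ranges of all later neighbours overlapped.

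Trpc6, which opens downstream of phospholipase C, had the Mrgprd gate on top and was almost absent from the Calca and Tac1 gate and the Th gate. Its mean in the Mrgprd gate was 70.1 and 70.7 CPM in Blue and Red and 152, 103.6, 63.5 and 65.3 CPM in Control, Control1, Control2 and Control6. In the other kept cells of these mice it was 17.7, 12.996, 14.4, 16.8, 16.2 and 10.2 CPM, in the same order. The 3 highest gate cells were all of Control, at 868, 652 and 435 CPM, and raised the mean of that mouse. They held 20.4% of the summed Trpc6 values of the gate, whose median was 66.5 CPM per cell. Few counts give such values in shallow cells, and the shallowest cell of this gate had 1153 counts. Every mouse was higher in the gate and the groups did not overlap (87.5 ± 34.8 and 14.7 ± 2.81 CPM, SD, n = 6 each; log2 difference 2.17 ± 0.21, SE; limma adjusted p = 1.99e-06). A count was found in 92.04% of gate cells (interval 85.4 to 96.3; 25.2% after thinning).

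In the Calca and Tac1 gate Trpc6 was found in 1 of 86 cells, in Red (1.16%, interval 0.029 to 6.31), and that cell held a value worth 0.5 recovered counts; the other 5 mice were listed at 0. The other kept cells averaged 42.1 and 40.6 CPM in Blue and Red and 69.5, 63.4, 42.03 and 40.97 CPM in Control, Control1, Control2 and Control6. The groups did not overlap (limma adjusted p = 2.34e-05; the fitted -3.39 depends on the pseudocount). Against a floor of 3 counts over the gate, 1.49 CPM, Trpc6 was at least 27.9-fold lower there than in the other kept cells with their counts pooled (41.4 CPM). In the Th gate no count was found in 39 cells, which allows a share of up to 7.69%. The other kept cells of Blue and Red averaged 35.6 and 32.9 CPM, and had 42.7 CPM with their counts pooled. With the same floor over the gate cells of these mice (2.86 CPM), the level was at least 14.96-fold lower than this pooled value. With 5 mice the Th gate call held (limma adjusted p = 0.000847), but it was not kept under every alternative run.

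The remaining gates lay between. In the Mrgpra3 gate Trpc6 was 41.8 CPM in Blue, 39.4 in Red and 16.1 in Control2, against 29.1, 26.9 and 37.5 CPM, and in the Sst or Nppb gate 41.7 and 27.8 CPM in Blue and Red and 23.8, 37.7 and 13.5 CPM in Control, Control1 and Control2. The other kept cells had 29.3, 28.9, 67.4, 57.5 and 37.9 CPM, mouse by mouse; neither was called. In the Nefh gate it was 24.97 CPM in Control and listed at 0 in Control2 and Control6, against 84.02, 39.9 and 39.1 CPM (-2.63 ± 0.54, SE; limma adjusted p = 0.00199). The Nefh gate call was kept in each fit that left out 1 mouse and without the mouse block (limma adjusted p = 0.0365). It was lost with no filter on low values (0.155) and with thinned cells (0.356). The fits without Control, Control2 and Control6 held 2 mice each, with prior degrees of freedom of 87.1, infinite and 416. They therefore took little or no account of the gene's own spread between mice. In Control 1 cell of this gate held 321 CPM of Trpc6, against a median of 15.4 CPM over the gate cells with a count.

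Trpm2, a channel gated by ADP-ribose and oxidative stress, was concentrated in the Sst or Nppb gate. Its mean was 90.4 and 92.6 CPM in Blue and Red and 88.6, 137 and 72.6 CPM in Control, Control1 and Control2. Against this, the other kept cells had 16.1, 7.57, 5.67, 10.3 and 10.1 CPM in that order of mice. The 5 mice were all higher in the gate and the groups did not overlap (96.3 ± 24.3 and 9.93 ± 3.93 CPM, SD, n = 5 each; log2 difference 2.77 ± 0.37, SE; limma adjusted p = 2.43e-04). A count was found in 33 of 46 cells (71.7%, interval 56.5 to 84.01; 35.6% after thinning), although these cells had the lowest median depth of the 6 gates. TRPM2 is also known in macrophages. Macrophage markers (7 listed) summed to 0 to 4.76 CPM per mouse in this gate, with Cd68, Lyz2, Csf1r, C1qa and C1qb at 0. The part of macrophage RNA in the Trpm2 values was not tested.

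The Mrgprd gate was at the other end. Trpm2 averaged 0.70 and 0.82 CPM in Blue and Red and 1.66, 0, 4.46 and 1.72 CPM in Control, Control1, Control2 and Control6. In the other kept cells of these mice it was 35.5, 23.8, 18.3, 63.97, 27.04 and 11.3 CPM, in the same order, without overlap (-2.29 ± 0.33, SE; limma adjusted p = 9.14e-05). It was found in 7 cells (6.19%) and, after thinning, in 0. The Calca and Tac1 gate had a mean of 21.1 ± 14.9 CPM (SD, n = 6) and 31 of 86 cells with a count, with no call. The Mrgpra3 gate had 11.7 ± 3.85 CPM and the Nefh gate 11.3 ± 6.67 CPM (SD, n = 3 each), with no call in either. In the Th gate Trpm2 was 18.7 CPM in Blue and 1.10 in Red, against 27.9 and 19.9 CPM; it was called lower there, but not with 5 mice (limma adjusted p = 0.161), without the mouse block (0.184) or with DESeq2 (0.633). Among the 34 Th gate cells in no other gate, 2 had a Trpm2 count, against 4 of the 5 that passed a second gate. Of the neighbouring gates in the order of Trpm2 levels, only Sst or Nppb and the Calca and Tac1 gate below it did not overlap.

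Trpv2 was the member found in most cells, 284 of 371 (76.5%), at the depth of the files; after thinning it was in 27.7%, and Trpv1 in 40.2%. Its mean in the Mrgprd gate was 119.007 and 97.4 CPM in Blue and Red and 106.9, 41.7, 95.2 and 102.8 CPM in Control, Control1, Control2 and Control6. The other kept cells had 64.8, 56.5, 39.3, 32.7, 56.96 and 45.3 CPM, mouse by mouse. All 6 mice were higher in the gate, by 0.83 ± 0.16 on the log2 scale (SE; limma adjusted p = 0.0015), but the groups overlapped. The call was lost with thinned cells (limma adjusted p = 0.402) and without cells carrying satellite glial RNA (0.0574). Trpv2 in the Calca and Tac1 gate was 32.8 and 35.5 CPM in Blue and Red and 30.3, 22.5, 25.4 and 0 CPM in Control, Control1, Control2 and Control6. Against this, the other kept cells had 94.8, 81.3, 66.6, 39.1, 81.7 and 84.1 CPM in that order of mice, without overlap (-1.64 ± 0.40, SE; limma adjusted p = 0.0159). Alternatives that lost this call included the pseudocount of 1 (limma adjusted p = 0.0781), the cells without satellite glial RNA (0.0621) and the mice of runs 2 to 4 alone (0.0797). In the Nefh gate it was 33.2 CPM in Control, 38.8 in Control2 and 11.1 in Control6, against 79.4, 76.9 and 78.7 CPM (-1.48 ± 0.40, SE; limma adjusted p = 0.0209), and the call was lost without Control (0.0614) and without Control6 (0.071). The Th gate, in which the other 6 tested members were called lower, had 84.2 CPM of Trpv2 in Blue and 74.2 in Red, against 77.8 and 66.8 CPM, and a count in 32 of 39 cells (82.1%). In order of Trpv2 level the gates ran Mrgprd, Sst or Nppb, Th, Mrgpra3, Nefh, Calca and Tac1, and the neighbours that did not overlap were Th and Mrgpra3, and Mrgpra3 and Nefh.

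Trpm3, a heat-activated channel, and Trpm4, a calcium-activated one, were called in no gate but the Th gate, although Trpm3 was called higher with means of log2 values in the Mrgprd gate (0.74, limma adjusted p = 0.0257) and within run 1, a fit of 2 mice with a shared spread, in the Calca and Tac1 gate (0.66). Trpm3 in the Mrgprd gate was 13.3 and 19.2 CPM in Blue and Red and 23.5, 83.5, 12.96 and 38.4 CPM in Control, Control1, Control2 and Control6. In the other kept cells of these mice it was 18.3, 18.4, 46.3, 25.999, 18.2 and 12.9 CPM, in the same order, with 3 mice higher and 3 lower. Its means in the gates ran from 32.3 ± 13.8 CPM in the Calca and Tac1 gate (SD, n = 6) to 5.91 CPM in the 2 mice of the Th gate, where it was called lower (-1.26; with 5 mice -1.82, limma adjusted p = 0.0475; without the mouse block 0.057). Trpm4 ran from 39.9 ± 19.8 CPM in the Sst or Nppb gate (SD, n = 5) to 7.57 ± 9.07 CPM in the Nefh gate (SD, n = 3). In the Th gate it was called lower (17.5 CPM in Blue and 10.4 in Red, against 30.7 and 31.8 CPM), and that call was lost with 5 mice (limma adjusted p = 0.59). Among the 34 Th gate cells in no other gate, 2 had a Trpm3 count and 9 a Trpm4 count. Of the 5 that passed a second gate, 3 had Trpm3 and 5 had Trpm4. For both genes the ranges of every pair of neighbours in the order of gates overlapped. Detection was broad and shallow, in 155 of 371 cells for Trpm3 and 194 of 371 for Trpm4, and in 11.1% and 9.70% of thinned cells.

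Trpm8, the menthol and cold receptor, was barely represented. A count was found in 19 of 371 cells (5.12%, interval 3.11 to 7.88), 15 of them with 1 count and none above 5, and in 0.554% of thinned cells. The highest level was 105.2 CPM. The cells lay in the Calca and Tac1 gate (10 of 86 cells, 11.6%; 2.33% after thinning) and the Nefh gate (9 of 26, 34.6%; 0 of 25 after thinning), with smaller numbers in the Th gate (2 of 39) and the Mrgprd gate (2 cells, 1.77%) and some cells in more than 1 gate. No count was found in 47 Mrgpra3 gate cells or 46 Sst or Nppb gate cells, which allows shares of up to 6.38% and 6.52%. Cells with a Trpm8 count had a median of 52827 counts, against 29703 in those without. Of the cold-class markers, Foxp2 was found in 4 of the 19 cells with Trpm8 and in 8 of the 352 without, and Cdh8 in 4 and 94. A population carrying Trpm8 at the level of the other members was thus not detectable among these sorted cells; whether such cells were absent from the sort or missed at this depth was not tested.

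**Figure D3:**
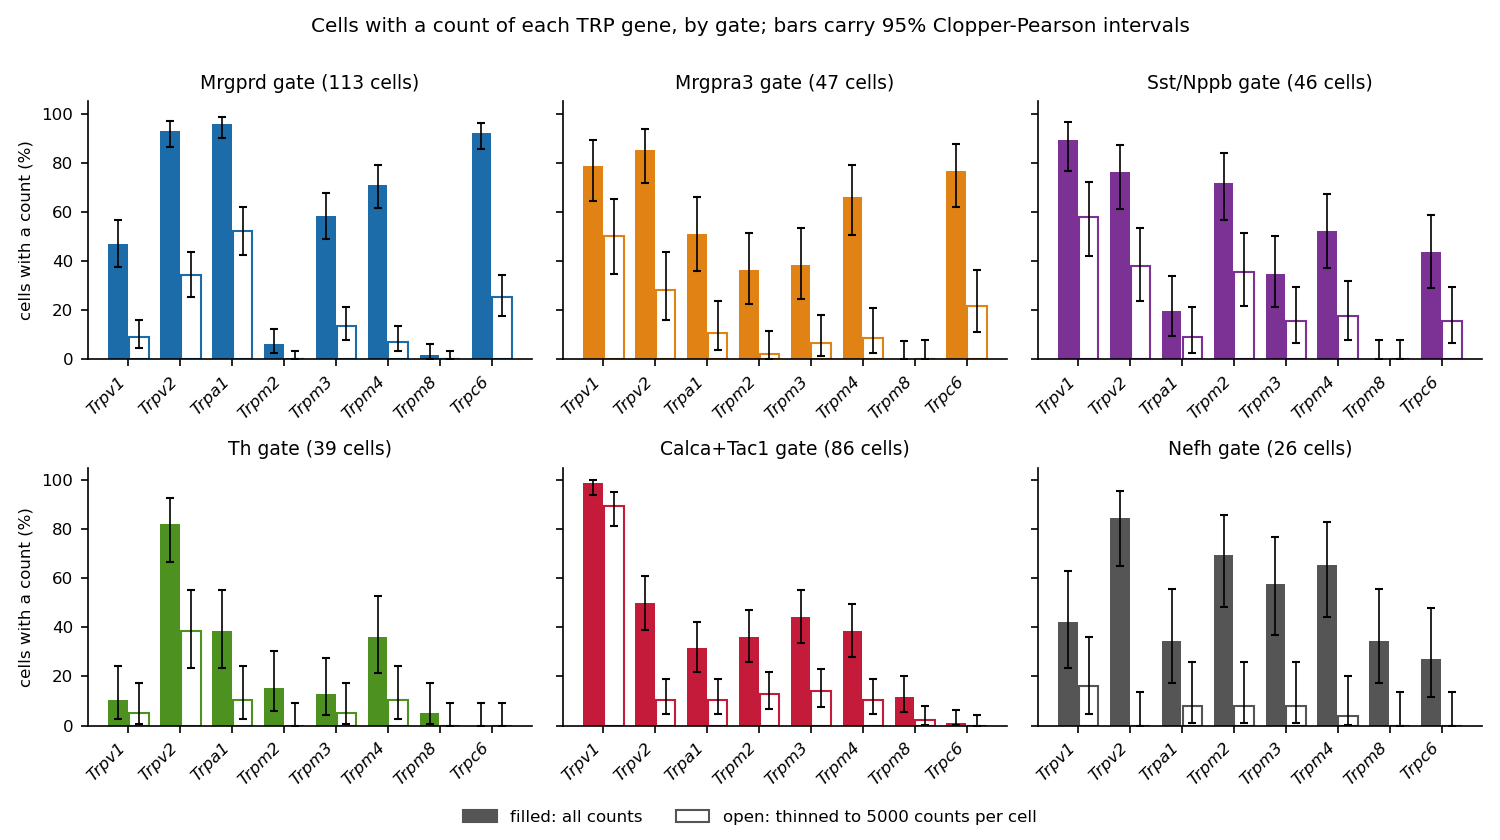
Share of cells with a count of each gene by gate, at the depth of the files (filled bars) and after thinning every cell to 5000 counts (open bars), with 95% Clopper-Pearson intervals. Trpv1 in the Calca and Tac1 gate keeps 89.5% after thinning, Trpv1 in the Mrgprd gate drops to 9.01%, and Trpm2 in the Sst or Nppb gate is at 35.6%.

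Several members were found together in the same cell. Kept cells had a median of 4 members with a count (range 0 to 8), and 329 of 371 cells (88.7%) had 2 or more; after thinning the median was 1 (range 0 to 4) and 139 of 361 cells (38.5%) had 2 or more. By gate, the thinned share with 2 or more members was 62.2% in the Sst or Nppb gate, 44.2% in the Calca and Tac1 gate, 42.3% in the Mrgprd gate, 36.96% in the Mrgpra3 gate, 10.3% in the Th gate and 8% in the Nefh gate. Trpv1 and Trpa1 met in cells that are 45.3% of the 232 cells with Trpv1 and 54.97% of the 191 with Trpa1, whereas Trpa1 was found in 61.9% of cells without Trpv1. After thinning, the overlap was 18 cells, 12.4% of 145 with Trpv1 and 22.5% of 80 with Trpa1. In the Mrgprd gate all 53 cells with Trpv1 also had Trpa1, at low Trpv1 levels, but Trpa1 was also in 55 of the 60 cells without Trpv1 (91.7%). After thinning, 8 of 10 Mrgprd gate cells with Trpv1 had Trpa1 (80%), against 49.5% of those without. Among Calca and Tac1 gate cells all 27 with Trpa1 also had Trpv1, which 98.8% of the gate had, and 58 cells had Trpv1 without Trpa1; after thinning 8 of 9 cells with Trpa1 had Trpv1, against 89.5% of the gate. In the Sst or Nppb gate the pair shared 7 of 46 cells and in the Mrgpra3 gate 16 of 47.

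Over all kept cells, Trpa1 and Trpc6 met in 65.97% of cells with Trpa1 and 75% of the 168 with Trpc6, and Trpc6 was found in 23.3% of cells without Trpa1 (Spearman rho 0.42 over 371 cells; 0.06 over 361 thinned cells). Within the Mrgprd gate, where both genes were high, rho was -0.19 (-0.14 thinned). Trpv1 and Trpm2 met in 91 cells, 39.2% of cells with Trpv1 and 82.7% of the 110 with Trpm2, and Trpm2 was found in 13.7% of cells without Trpv1 (rho 0.32; 0.23 thinned). Within the Sst or Nppb gate rho of this pair was -0.09 (0.11 thinned), and within the Calca and Tac1 gate 0.12 (0.09 thinned). In thinned cells this pair kept 24 of the 31 cells with Trpm2 (77.4%), and Trpm2 was found in 3.24% of cells without Trpv1. Trpm2 and Trpc6 met in 36 cells, 32.7% of cells with Trpm2 and 21.4% of those with Trpc6, while Trpc6 was found in 50.6% of cells without Trpm2. These correlations run across cells that share mice and depths and carry no test.

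**Figure D4:**
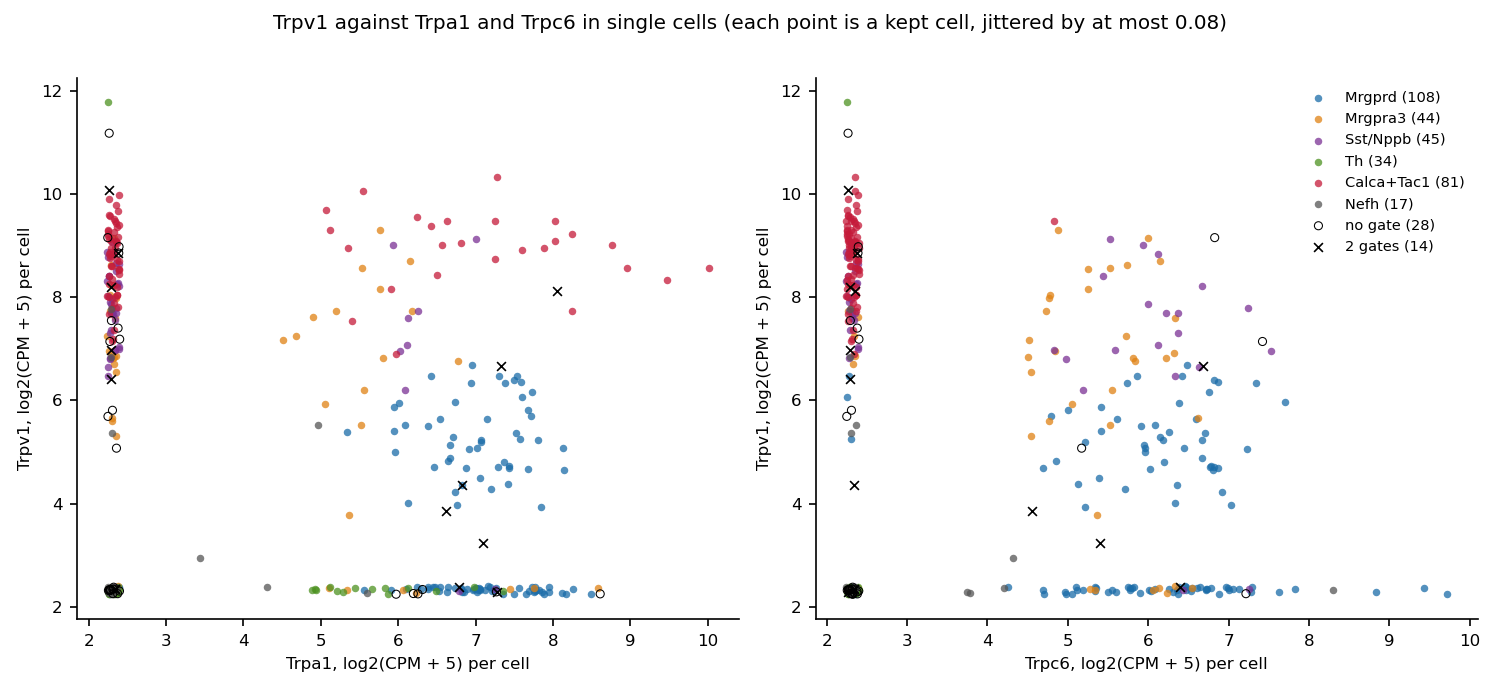
Trpv1 in each kept cell against Trpa1 (left) and Trpc6 (right), as log2(CPM + 5), coloured by gate, with open circles for cells in no gate and crosses for cells in 2 gates. Calca and Tac1 gate cells lie high on Trpv1 with Trpa1 in 27 of 86 and Trpc6 in 1 of 86, Mrgprd gate cells lie at or below 98.1 CPM of Trpv1, and 2 cells outside the Calca and Tac1 gate have the most Trpv1, at 3500 and 2198 CPM.

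Levels of different genes were compared per kilobase of merged exons, with the caution that the sources used here do not give the coverage along transcripts. Over all kept cells (mean ± SD of 6 mice) Trpv1 had 38.6 ± 19.99 CPM per kilobase, Trpa1 17.9 ± 5.36, Trpv2 14.5 ± 3.29 and Trpc6 8.10 ± 2.81 CPM per kilobase. Trpm4 had 2.05 ± 0.70, Trpm2 1.59 ± 0.86, Trpm3 1.12 ± 0.57 and Trpm8 0.32 ± 0.22 CPM per kilobase. Merged exons were 24.4 kilobases long for Trpm3, 12.5 for Trpm2 and 10.8 for Trpm4, against 3.68 to 5.07 for the other genes. The order depends on this length, which can exceed that of a single transcript. Without it the means were 27.4 CPM for Trpm3, 22.2 CPM for Trpm4 and 19.8 CPM for Trpm2. The spread of Trpv1 over all kept cells was wide, with means of 249 CPM in Blue and 214 in Red and of 63.05 to 132 CPM in the other mice. The Calca and Tac1 gate drew 71 of its 86 cells from Blue and Red, which gave 254 of the 371 kept cells. Within this gate Trpv1 was also higher in Blue and Red (564 and 465 CPM) than in the other mice (264 to 412 CPM). The part of gate composition in the spread was not tested.

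The genes whose means over mouse and gate ran most like each member were sought among 6898 genes, over 25 means of at least 3 cells each; these points share mice and libraries, so the coefficients are descriptions. For Trpc6 they were Cd55, Arap1 and Nt5e (Pearson r 0.91, 0.91 and 0.90), for Trpm2 Bean1, B3galnt1 and Htr1a (0.88, 0.87 and 0.87), and for Trpv2 Fmnl1, Pacsin1 and Atp6v0b (0.87, 0.87 and 0.85). For Trpv1 they were Diablo, Slc10a6 and Nrsn1 (0.83, 0.82 and 0.81), for Trpm4 Nfat5, Parp4 and Ankmy2 (0.83, 0.79 and 0.78), for Trpm3 Zc3h11a, Cadm2 and Gsk3b (0.80, 0.75 and 0.74) and for Trpa1 Tle3, Higd1a and Fads1 (0.79, 0.79 and 0.78). Among the members themselves, Trpv2 and Trpm4 had r of 0.71, Trpv1 and Trpm2 0.64, Trpv2 and Trpc6 0.61, and Trpv1 and Trpc6 -0.59.

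Of the other 20 TRP genes listed, few were tested because most lay below 10 CPM. Trpm6, a magnesium channel, was higher in the Sst or Nppb gate (82.5 ± 36.3 and 0.72 ± 0.92 CPM, SD, n = 5 each; 3.82, limma adjusted p = 9.43e-05). Of this list, 1 of 5 tested genes was called in the Mrgprd gate (higher), 0 of 6 in the Mrgpra3 gate and 2 of 5 in the Sst or Nppb gate (1 in each direction). Lower calls were 2 of 4 in the Th gate, 1 of 5 in the Calca and Tac1 gate and 1 of 5 in the Nefh gate, against 14.4%, 6.40% and 4.58% of all genes there; with so few genes tested these counts are descriptions. Trpm1, Trpm5, Trpv5, Trpv6 and Mcoln3 had no count in 371 cells, which allows a share of up to 0.809% each.

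Of 25 genes for partners and modulators of TRP channels, 7 were higher and 5 lower of 21 tested in the Mrgprd gate (median log2 difference 0.15, against -0.03 over all genes tested), where 9.70% of all genes were higher and 12.3% lower. In the Calca and Tac1 gate 4 were higher and 4 lower of 22 (0.13, against -0.08), where 5.08% of all genes were higher and 6.40% lower. Tmem100, an adaptor between TRPA1 and TRPV1, was higher in the Calca and Tac1 gate (265 ± 51.7 and 32.7 ± 18.4 CPM, SD, n = 6 each; 3.13, limma adjusted p = 2.64e-05) and lower in the Mrgprd gate (0.66 ± 1.38 and 119.1 ± 41.5 CPM; -4.40, limma adjusted p = 1.27e-08). Prkca, which encodes protein kinase C alpha, was higher in the Mrgprd gate (1039 ± 123.2 and 384 ± 146 CPM; 1.499, limma adjusted p = 3.58e-07) and lower in the Calca and Tac1 gate (133 ± 60.7 and 733 ± 173 CPM; -2.56, limma adjusted p = 1.28e-05). In the Sst or Nppb gate 1 partner was higher and 7 lower of 21 (3.24% and 8.68% of all genes), and Plcd4, a phospholipase C, was among the lower ones (3.23 ± 4.79 and 48.4 ± 12.2 CPM, SD, n = 5 each; -2.85, limma adjusted p = 0.00141). The Mrgpra3 gate had 1 higher and 1 lower of 21 (1.37% and 2.19% of all genes), the Th gate 7 and 7 of 21 (14.3% and 14.4%), and the Nefh gate 4 and 4 of 21 (4.20% and 4.58%).

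Receptors known to sensitise TRP channels (25 listed) were called in both directions. In the Mrgprd gate 4 were higher and 9 lower of 13 tested (median -2.52, against -0.03 over all genes), in the Calca and Tac1 gate 5 and 6 of 13 (-0.31, against -0.08), and in the Sst or Nppb gate 4 and 6 of 12 (-0.95, against -0.20). The shares of all genes called were the same as those given for the partners. Osmr, the oncostatin M receptor subunit used by IL-31, was higher in the Sst or Nppb gate (794 ± 119.5 and 28.5 ± 17.8 CPM, SD, n = 5 each; 4.74, limma adjusted p = 1.02e-06), the gate in which Trpm2 was high. Gfra3 was higher in the Calca and Tac1 gate (186 ± 52.4 and 6.999 ± 6.62 CPM, SD, n = 6 each; 4.12, limma adjusted p = 9.97e-07), and Gfra2, the neurturin co-receptor, in the Mrgprd gate (593 ± 83.7 and 154 ± 33.6 CPM; 1.93, limma adjusted p = 8.12e-09). For the Mrgpra3 gate the counts were 2 higher and 3 lower of 15, in the Th gate 4 and 8 of 12, and in the Nefh gate 3 and 6 of 14. Some of these receptors are themselves markers of the gated classes, so that their calls are not independent of the gates.

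Of 18 other channels linked to temperature responses, 2 were higher and 2 lower of 13 tested in the Mrgprd gate, 1 and 3 of 13 in the Mrgpra3 gate, 0 and 4 of 12 in the Sst or Nppb gate, 7 and 4 of 13 in the Th gate, 2 and 4 of 13 in the Calca and Tac1 gate and 7 and 2 of 12 in the Nefh gate; the same shares of all genes apply, from 1.37% and 2.19% in the Mrgpra3 gate to 14.3% and 14.4% in the Th gate. Scn11a, the sodium channel Nav1.9, was higher in the Mrgprd gate (1276 ± 120.1 and 569.6 ± 101.5 CPM, SD, n = 6 each; 1.17, limma adjusted p = 2.84e-07) and lower in the Calca and Tac1 gate (337 ± 114.6 and 932 ± 104.2 CPM; -1.53, limma adjusted p = 0.000108). Asic3, an acid-sensing channel, was higher in the Nefh gate (229 ± 193 and 13.3 ± 6.43 CPM, SD, n = 3 each; 3.31, limma adjusted p = 6.65e-05).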

How the data were processed

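Single sorted DRG cells were sequenced one library per cell, in 4 runs. The authors deposited 4 tables of gene values; per the submitters' processing notes STAR 2.7.3a and the mm10 build were used, and the counting method and the scaling step are not given in the sources used here. The deposited values are a signal in which each cell's counts are multiplied by a factor of that cell, as tested on the values: a median of 96.4% of low values were whole multiples (tolerance 0.1), and in 243 of 394 columns whole reads were recovered. Values were rescaled to CPM without Rn45s (mean 7.10% of kept cells' values) and 26 rows whose names had become dates (0.154%). Of 400 labelled cells 6 were not analysed here; 23 with fewer than 500 genes were left out, all with at most 383 counts. The 371 kept cells were 126 (Blue), 128 (Red), 50 (Control), 19 (Control1), 23 (Control2) and 25 (Control6), and 113 passed the Mrgprd gate.

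The mouse was the replicate. The limma p-values combine a gene's own spread between these mice with the spread shared by all genes. The prior and residual degrees of freedom were 9.34 and 5 in the Mrgprd gate, 4 and 2 in the Mrgpra3 gate, and 8.89 and 4 in the Sst or Nppb gate. They were 8.42 and 5 in the Calca and Tac1 gate, 21.3 and 2 in the Nefh gate, and infinite and 1 in the Th gate. Cells per mouse and side (at least 3) were averaged, and log2(mean CPM + 5) was fitted in limma 3.58.1 (R 4.3.3; trended prior, mouse block) for genes averaging 10 CPM or more, without the 8 gate genes, with Benjamini-Hochberg adjustment over all genes. Both sides of a comparison come from the same mouse, which gives the pairing. Fold changes on this scale understate the change of low genes. A unit of signal leaves edgeR 4.0.16 and DESeq2 1.42.0 as alternatives on recovered counts only. Other alternatives were the pseudocount, the filter, leaving out a mouse, no block, means of log values, thinning, stricter gates, cells without satellite glial RNA, totals with the removed rows, and runs apart. Python 3.11.15 with pandas 2.3.3, numpy 2.4.6, scipy 1.17.1 and matplotlib 3.10.9 was used. The tests were tested on simulated data. No columns were identical. Doublets were not called; 14 cells passed 2 gates.

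The members, gates and gene lists were chosen with earlier results of these data known. Named genes were all members, up to 2 called genes of smallest p per pathway list and gate, and, for each member averaging 10 CPM or more, the 3 genes (20 CPM or more) of highest Pearson r; some genes under this rule are not reported here.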

Additional observations from a re-analysis of the deposited data

Results flagged for a closer look

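In 31 groups of 5 or 6 mice (a gene in a gate or over all kept cells), a mouse stood apart from the others in 8 cases. These came from 4 mice. The threshold used has a nominal rate of about 1 in 20 such groups by chance. That rate need not hold where most values lie at or near 0, as for Trpc6 and Trpm8 below. Mouse Control1 was the lowest for Trpv2 in the Mrgprd gate (41.7 CPM over 8 cells, against 95.2 to 119.007 CPM in the other mice) and over all kept cells (36.5 CPM over 19 cells, against 63.7 to 78.6 CPM). The same mouse was the highest for Trpm3 in the Mrgprd gate (83.5 CPM, against 12.96 to 38.4 CPM) and for Trpa1 over all kept cells (120.2 CPM, against 56.7 to 77.3 CPM). In the Calca and Tac1 gate, Trpv2 was at 0 in Control6 over 4 cells, against 22.5 to 35.5 CPM, and Trpm8 was at 22.5 CPM in Control over 4 cells, against 0 to 5.71 CPM. In the same gate Trpc6 was at 0.64 CPM in Red over 38 cells and at 0 in the other mice. In the Mrgprd gate Trpm8 was at 1.72 CPM in Control6 over 11 cells, against 0 to 0.54 CPM.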

How the results depend on the processing

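Of 663 member values under alternatives, 553 kept their direction and their side of the threshold, 40 lost a call, 27 gained one and 43 turned direction; those 43 were of members not called. The limits are the number of mice (2 in the Th gate, 3 in the Mrgpra3 and Nefh gates), the few cells of runs 2 to 4 and the depth of the cells. The cause of the changes below was not tested.

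Without the replicate block, 3 members were called in the Th gate (6 with it) and 1 in the Nefh gate (3 with it). With no filter on low values, 1 was called in the Sst or Nppb gate and 0 in the Nefh gate. In the Mrgpra3 gate (0 called) 4 were called within run 1, among cells in exactly 1 gate and without satellite glial RNA (2 mice each), 2 with edgeR and 1 with DESeq2. DESeq2 called 2 members in the Th gate. With thinned cells, 1 was called in the Sst or Nppb gate, 1 in the Th gate and 0 in the Nefh gate, 4 of 48 pairs of member and gate (21 unthinned) had a count in 50% of cells, and 139 cells (329 unthinned) had 2 or more members. Means of log2 values called 1 in the Nefh gate, and runs 2 to 4 called 1 in the Sst or Nppb gate. Leaving out each mouse gave 1 to 4 members in the Mrgpra3 gate, 1 to 2 in the Sst or Nppb gate and 1 to 3 in the Nefh gate. With 5 mice in the Th gate, chosen after seeing the data, 4 were called.

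Turned log2 differences were, with DESeq2, 0.21 (Trpm4, Mrgprd), 0.19 (Trpv1, Mrgpra3), 0.000795 (Trpc6, Mrgpra3), 0.57 (Trpm3, Sst or Nppb), -0.071 (Trpv2, Th) and 0.33 (Trpm2, Nefh); with edgeR, 0.26 (Trpm4, Mrgprd), 0.073 (Trpc6, Mrgpra3), 0.69 (Trpm3, Sst or Nppb), -0.076 (Trpv2, Th) and 0.33 (Trpm2, Nefh). With thinned cells they were 0.25 (Trpv1) and -0.59 (Trpm4) in the Mrgpra3 gate, -0.15 (Trpm4, Sst or Nppb), and -1.05 (Trpm2) and -1.08 (Trpm3) in the Calca and Tac1 gate. With means of log2 values they were 0.41 (Trpm4, Mrgprd), 1.17 (Trpv1), 0.19 (Trpv2), 0.10 (Trpm2) and 0.79 (Trpc6) in the Mrgpra3 gate, and 0.55 (Trpm2, Nefh). Within run 1 they were -0.15 (Trpm3) and 0.22 (Trpm4) in the Mrgprd gate, 0.47 (Trpc6, Mrgpra3), 0.60 (Trpm3) and 0.20 (Trpc6) in the Sst or Nppb gate, and 0.049 (Trpa1, Calca and Tac1). Within runs 2 to 4 Trpm2 in the Calca and Tac1 gate was -0.000347. Without satellite glial RNA, Trpm4 was 0.28 (Mrgprd) and Trpc6 0.46 (Mrgpra3), and among cells in exactly 1 gate Trpc6 was 0.38 (Mrgpra3). Leaving out each mouse gave -0.62 to 0.00581 (Trpa1) and -0.14 to 0.15 (Trpm2) in the Calca and Tac1 gate, -0.28 to 0.47 (Trpc6) and -0.73 to 0.57 (Trpv1) in the Mrgpra3 gate, and -0.048 to 0.42 (Trpm3) and -0.21 to 0.22 (Trpm4) in the Mrgprd gate.

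Genes called moved by over 1.5 times in these cases. Mrgprd gate (1994): 3038 with means of log2 values, 814 thinned, 1159 without satellite glial RNA, 3134 in run 1 and 1285 in runs 2 to 4. Mrgpra3 gate (319): 144 with a pseudocount of 1, 98 with no filter, 480 without the block, 42 thinned, 2031 in exactly 1 gate, 1999 without satellite glial RNA, 1707 with edgeR, 709 with DESeq2 and 2260 in run 1. Sst or Nppb gate (1077): 613 thinned, 532 without satellite glial RNA, 2329 with edgeR, 2190 in run 1 and 424 in runs 2 to 4. Th gate (2601): 695 thinned, 1031 with DESeq2 and 886 with 5 mice. Calca and Tac1 gate (1057): 394 thinned, 648 with doubled thresholds, 1987 with edgeR, 1595 with DESeq2, 2794 in run 1 and 483 in runs 2 to 4. Nefh gate (815): 39 with no filter, 490 without Control2, 223 thinned and 1332 with edgeR. The share of calls that were higher moved by over 10 points with means of log2 values (78.1% against 44.1% in the Mrgprd gate, 67.3% against 38.6% in the Mrgpra3 gate, 61.2% against 49.9% in the Th gate, 84.3% against 47.9% in the Nefh gate). In the Sst or Nppb gate (27.2%) it was 40.8% with edgeR and 39.4% with DESeq2, in the Calca and Tac1 gate (44.3%) 26.6% thinned and 33.5% in runs 2 to 4, and in the Nefh gate 76.9% with no filter, 36.3% thinned and 60.2% with DESeq2. The Nefh gate could not be fitted among cells in exactly 1 gate, with doubled thresholds, without satellite glial RNA or within run 1.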

Other observations

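The highest Trpv1 levels lay outside the Calca and Tac1 gate, in cells singled out after their values were seen and given without a test. A Blue cell in the Th gate had 3500 CPM of Trpv1 (46 of 13143 counts), with 2511 CPM of Tac1 and 685 CPM of Th, but no count of Calca, Gfra3, Kit or Adcyap1. Another Blue cell, in no gate, had 2198 CPM of Trpv1 (12 of 5461 counts), with 1282 CPM of Tac1 and again no count of those genes. The next cell, of the Calca and Tac1 gate, had 1273 CPM of Trpv1 and 18120 CPM of Calca. In all, 3 kept cells had at least 1000 CPM of Tac1 and no Calca count; all came from Blue, and 2 of them had Trpv1. Of the 6 cells with at least 1000 CPM of Trpv1, 5 were from Blue.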
